A study of Mus musculus with 32 samples.

Results

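LAG-3-low microglia of SOD1G93A mice were compared with microglia of WT mice. The comparison took every library carrying these group labels in the experiment sorted by LAG-3, 5 LAG-3-low and 4 WT, which are 9 of the 32 libraries of the series. Both groups were CD11b+/CD45int cells sorted from the lumbar spinal cord. The LAG-3-low cells came from SOD1G93A mice at P140, a late symptomatic stage, and were gated for low surface LAG-3. The WT cells were not gated on LAG-3, and WT controls were non-transgenic littermates according to the methods. SOD1G93A mice carry a human SOD1 transgene with the ALS mutation that names them, under the human SOD1 promoter, which is active in most cell types, microglia included. The third group of the same experiment, 5 SOD1G93A LAG-3-high libraries, entered the same model and is given beside WT where stated. The labels do not say whether libraries came from separate mice or from pools. The p-values therefore measure the spread between libraries, not between mice, and those of edgeR draw on the libraries of all 3 groups. By the methods, microglia of SOD1G93A mice were separated into LAG-3-low and LAG-3-high fractions, so libraries of these groups may share mice. The main fit treated all libraries as independent. Of 74021 genes in the table, 16508 passed a filter on low counts and were tested.

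Microglia are the resident macrophages of the central nervous system and keep a homeostatic programme, marked by the purinergic receptor gene *P2ry12* and by *Tmem119*, that depends on TGF-beta and on the transcription factor SALL1. Near damaged neurons and protein deposits they can adopt a disease-associated state (DAM), in which homeostatic genes fall and genes of lipid uptake, lysosomal digestion and phagocytosis rise, in part through the receptor TREM2 and its adaptor TYROBP. LAG-3 is an inhibitory receptor best known from T cells, where it binds MHC class II and other ligands.

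Library composition differed between the groups before any gene was compared. Totals were 9403475 to 18882504 counts in WT and 13542758 to 22850586 in LAG-3-low libraries. Genes with at least 1 count numbered 20398, 19780.0, 19245 and 17031 in WT libraries 1 to 4 and 26852, 21588, 23046, 22877 and 22511 in LAG-3-low libraries 1 to 5, so every LAG-3-low library held more (two-sided exact permutation test of the means, p = 0.00794, the smallest p that 4 against 5 libraries allow). WT libraries 1 and 4 stood apart from the other 7 libraries. On the first principal component of log2 CPM, which held 44.6% of the variance, they lay at -193 and -294, WT 2 and 3 at 12.7 and -44.6, and each LAG-3-low library lay from 88.6 to 114. The count-weighted mean transcript length was 2149.7 and 1912 bases in WT 1 and 4, 2639.8 and 2511 bases in WT 2 and 3 and 2548 to 2617 bases in LAG-3-low libraries. Transcript length, here and below, is the median over all annotated transcripts of a gene. Which of them were expressed was not measured. Genes of the mitochondrial genome took 2.84, 0.796, 1.41 and 3.45% of the counts in WT 1 to 4 and 0.558 to 0.797% in LAG-3-low libraries. The non-coding RNA *Gm59785*, which lies within *Malat1* on the opposite strand and cannot be told from it with this unstranded kit, took 7.56 and 5.56% in WT 1 and 4, 1.02 and 2.27% in WT 2 and 3 and 0.356 to 0.4998% in LAG-3-low libraries. Results are therefore given with all 4 WT libraries and, where a call or value depended on them, again without WT 1 and 4, an alternative chosen after seeing the data, which leaves 2 WT libraries and relies on the spread of the other groups.

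The markers of the labelled cell type were present in all 9 libraries, and those of neutrophils and monocytes were too. Levels are in CPM, counts scaled to a common library size with TMM factors. A list of 10 microglial markers, among them *P2ry12* and *Csf1r*, summed to 30047 to 37579.8 CPM in WT and 17642 to 25794 CPM in LAG-3-low libraries, without overlap, and 6 of its 9 members tested were lower. A list of 25 neutrophil genes summed to 6516, 40249.9, 10499.9 and 72373 CPM in WT 1 to 4 and 32026, 58509, 73522, 54796 and 25480.5 CPM in LAG-3-low 1 to 5, against 487 to 673 CPM in LAG-3-high libraries. Both groups of the comparison held neutrophil transcripts, and their ranges overlapped (difference in mean log2 sum 1.10, exact permutation p = 0.214; 1.14 without WT 1 and 4, exact permutation p = 0.190). Of the 22 neutrophil genes tested, 7 (31.8%) were higher and none lower, against 10.9% and 11.0% of all genes tested. The rises numbered 14 without WT 2, where 3235 of 17398 genes were higher, and 4 without LAG-3-low 2 or LAG-3-low 4. None of the 25 was at 0 in all 9 libraries. A list of 12 monocyte genes summed to 61.3, 2842, 585 and 1202 CPM in WT and 3645, 5357, 5478, 4147 and 1838 CPM in LAG-3-low libraries (exact permutation test of the mean sums, p = 0.0317). In bulk libraries a larger share of such cells and more RNA per cell cannot be told apart. LAG-3-low library 5 held the least of both. The part of these cells in any single rise was not tested.

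**Figure D1:**
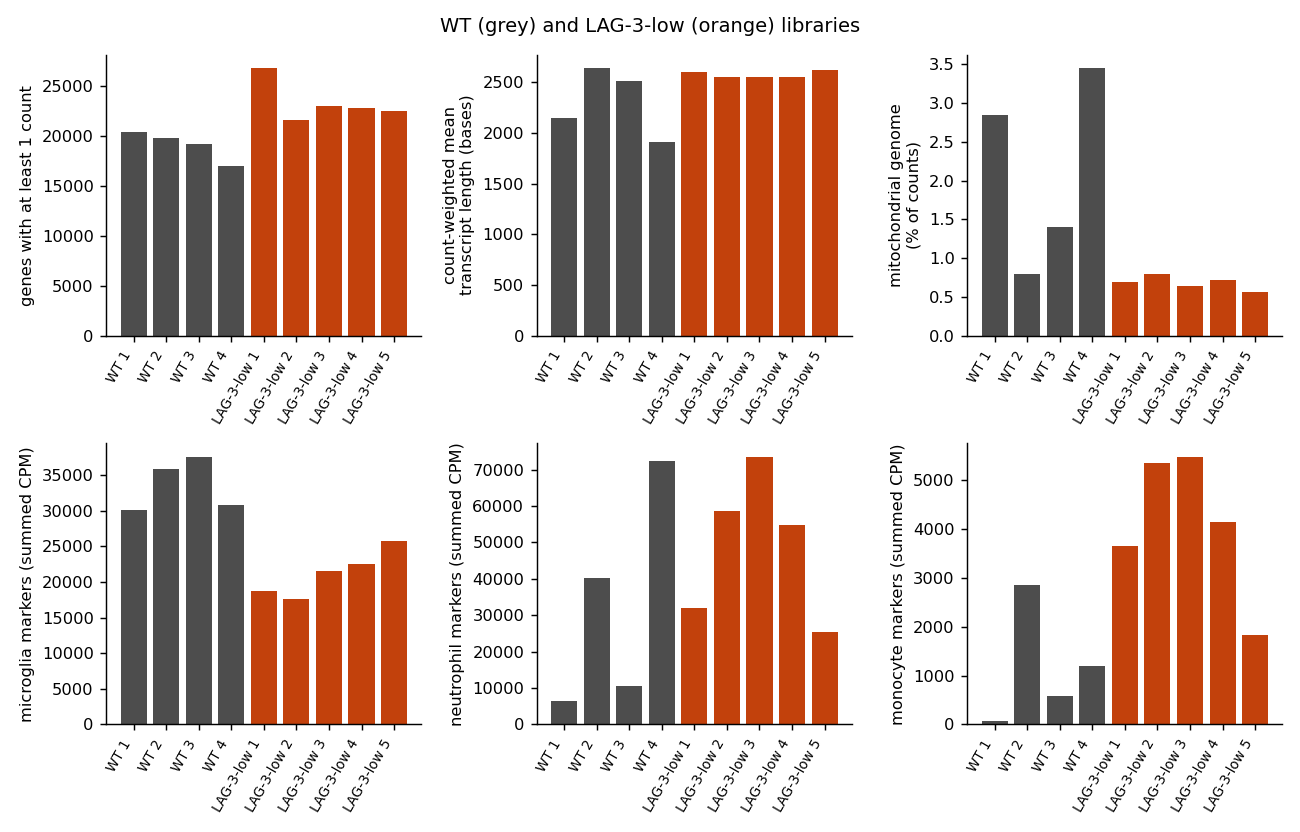
Composition of the 4 WT (grey) and 5 LAG-3-low (orange) libraries: genes with at least 1 count, count-weighted mean transcript length in bases, counts from the mitochondrial genome in percent, and summed CPM of the microglial, neutrophil and monocyte marker lists, 1 bar per library. WT 1 and WT 4 have the shortest transcripts and the largest mitochondrial share, and the microglial sums of the groups do not overlap.

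Other cell types left few transcripts. In the T and NK cell list, 9 of 18 genes, among them the T cell receptor genes *Cd3e*, *Trac*, *Trbc1* and *Trbc2*, were at 0 in all 9 libraries, and the list summed to 2.09 to 4.62 CPM in WT and 8.76 to 33.6 CPM in LAG-3-low libraries. Of its 4 genes tested, *Cd5* and *Klrb1c* were higher. Erythroid sums stayed at or below 5.66 CPM with no gene tested, and neuronal sums at or below 13.6 CPM with *Gad1* as the 1 call, higher, of 4 genes tested. The endothelial and mural list summed to 5.87 to 26.003 CPM in WT and 67.3 to 162 CPM in LAG-3-low libraries. Its 2 rises were *Flt1* and *Cspg4*, and the vascular defining genes *Cdh5*, *Itm2a*, *Rgs5* and *Vtn* were at 0 in all 9 libraries. *Pecam1*, the endothelial adhesion molecule, was lower (log2 fold change -1.68, edgeR adjusted p = 0.0702), a call lost without WT 1 and 4. Oligodendrocyte lineage genes summed to 117 to 211 CPM in WT and 128 to 221 CPM in LAG-3-low libraries, with *Cspg4* higher and 1 gene lower of 6 tested.

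Astrocyte genes summed to 89.9 to 219.7 CPM in WT and 50.5 to 73.4 CPM in LAG-3-low libraries, with *Gfap* higher and *Slc1a3* and *Aldh1l1* lower of 4 tested. B and plasma cell genes were at 328 to 632 CPM in WT and 218 to 299.6 CPM in LAG-3-low libraries. Their 1 call of 5 was the B-lineage transcription factor gene *Ebf1*, at 52.1, 9.32, 14.004 and 69.7 CPM in WT and 4.05, 2.96, 3.48, 3.49 and 4.58 CPM in LAG-3-low libraries, while *Igkc* was at 0 in all 9. Border-associated macrophage genes summed to 178 to 1025 CPM in WT, where WT 3 held the most, and to 189.97 to 359 CPM in LAG-3-low libraries. Of 10 tested, *Siglec1* was higher and the scavenger receptor gene *Stab1* lower. Calls in these lists that lie outside the rule for named genes were named after their values were seen.

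Across the 16508 genes, 1793 (10.9%) were higher and 1821 (11.0%) lower in LAG-3-low microglia, where a call required an edgeR adjusted p under 0.1 and a log2 fold change beyond 1 in either direction. The fitted fold changes of the rises were larger than those of the falls. Among the rises 633 lay between 4 and 8 on the log2 scale and 242 above 8, against 96 and 9 of the falls. In 470 of the 1793 rises, no WT library held a single count, and 12 of the falls had none in LAG-3-low libraries. No WT library held more than 3 counts in 712 of the rises, and no LAG-3-low library did in 19 of the falls. The fitted sizes of such changes depend on the prior count, so the sizes of rises and falls are not directly comparable. Every WT library held fewer genes with a count than every LAG-3-low library, and the part of missed transcripts in these zeros was not tested. Every LAG-3-low library exceeded every WT library in 1187 of the rises and lay below every WT library in 787 of the falls, and over all genes tested 9.78% separated upward and 5.95% downward. Without WT 1 and 4, 1690 of 18594 genes (9.09%) were higher and 709 (3.81%) lower. Of the rises above, 1076 (60.01%) were called again, and of the falls 406 (22.3%). Protein-coding genes made up 1417 of the rises and 1065 of the falls, and long non-coding RNAs 335 and 697.

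**Figure D2:**
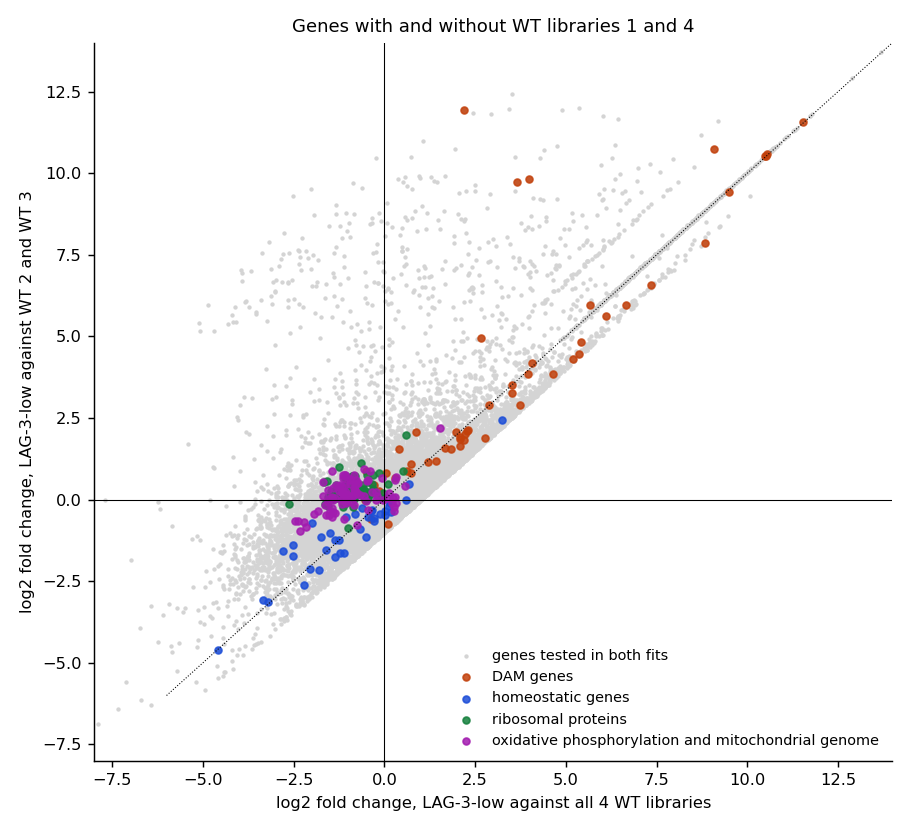
Log2 fold change of LAG-3-low against WT with all 4 WT libraries (x axis) and without WT 1 and 4 (y axis), 1 point per gene tested in both fits, with DAM genes, homeostatic genes, ribosomal proteins, and oxidative phosphorylation and mitochondrial genome genes in colour and the dotted line marking equal values. DAM and homeostatic genes lie along the dotted line, while the ribosomal and oxidative phosphorylation genes shift from below 0 to about 0.

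*Lag3* itself was higher in the fraction gated for low surface LAG-3 than in WT microglia. Its level was 1.07, 6.88, 9.99 and 0.508 CPM in WT libraries 1 to 4 and 42.9, 34.8, 38.7, 43.02 and 57.8 CPM in LAG-3-low libraries 1 to 5, and the groups did not overlap (log2 fold change 3.24, standard error 0.65, edgeR adjusted p = 0.00515, with Benjamini-Hochberg adjustment over all genes as for every adjusted p here). Mean log2 CPM differed by 3.998 (exact permutation p = 0.00794) and 2.35 without WT 1 and 4, the WT libraries with the fewest *Lag3* counts (exact permutation p = 0.0476, the smallest that 2 against 5 libraries allow). *Havcr2*, which encodes the checkpoint receptor TIM-3, was at 213, 328, 209.6 and 157 CPM in WT libraries 1 to 4 and 208, 204, 201, 214 and 238 CPM in LAG-3-low libraries 1 to 5. The groups overlapped, and no difference was called (log2 fold change -0.092, standard error 0.20, edgeR adjusted p = 0.793). Of 26 genes of checkpoint receptors and their ligands tested, 8 (30.8%) were higher and 2 (7.69%) lower, against 10.9% and 11.0% of all genes. Their median log2 fold change was 0.96, against 0.036 over all genes tested. The 3 with the smallest adjusted p were *Cd200r4*, a gene of the CD200 receptor family, *Lgals3*, which encodes galectin-3, and *Lilrb4a*, an inhibitory receptor of myeloid cells. *Lgals3* was at 33.5, 94.1, 55.6 and 101 CPM in WT libraries 1 to 4 and 597, 703, 509.9, 554 and 275 CPM in LAG-3-low libraries 1 to 5. *Lilrb4a* was at 9.74, 24.1, 75.6 and 90.2 CPM in WT and 769.6, 927, 991, 646 and 873 CPM in LAG-3-low libraries (log2 fold change 4.07, standard error 0.53, edgeR adjusted p = 0.000308). Both separated the groups completely, with log2 fold changes of 2.89 and 4.18 without WT 1 and 4. *Cd200r4* and *Lilrb4a* have close copies in the genome, and *Lilrb4a* overlaps *Gm49339*, so their counts are uncertain to that extent.

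The DAM markers rose together, apart from *Trem2* and *Tyrobp*. Of 9 named by the study, 7 (77.8% of the list, against 10.9% of all genes tested) were higher, the same number without WT 1 and 4. *Spp1*, which encodes the secreted protein osteopontin, was at 106, 19.6, 82.2 and 22.4 CPM in WT libraries 1 to 4 and 4242, 4039.6, 2801, 2438 and 1167 CPM in LAG-3-low libraries 1 to 5. *Cst7*, which encodes the cathepsin inhibitor cystatin F, was at 4.84, 7.23, 6.32 and 0 CPM in WT and 386, 362, 327, 168 and 329 CPM in LAG-3-low libraries, with LAG-3-low 4 lowest of its group. The lowest LAG-3-low library was above the highest WT library for both genes and for the other 5. *Apoe*, the lipid carrier and the most abundant of them, was at 2182, 148, 4044 and 697 CPM in WT libraries 1 to 4 and 34127, 28863, 22623, 20406 and 30987 CPM in LAG-3-low libraries 1 to 5. *Lpl*, the lipoprotein lipase gene, was at 93.6, 19.1, 125 and 22.8 CPM in WT and 719, 893, 841, 626 and 687 CPM in LAG-3-low libraries. WT 1 and 3 held the most *Apoe* and *Lpl* of their group. The integrin gene *Itgax* was at 2.29, 0.0871, 8.81 and 0 CPM in WT and 114, 129, 133, 93.6 and 139 CPM in LAG-3-low libraries. *Clec7a*, which encodes the fungal sugar receptor Dectin-1, was at 10.7, 39.3, 78.9 and 54.9 CPM and 635, 540.1, 526, 432 and 518 CPM, and the TAM receptor gene *Axl* at 8.87, 62.04, 73.3 and 0.698 CPM and 1064, 852, 944, 748 and 948 CPM. Their log2 fold changes without WT 1 and 4 were 5.97 for *Spp1*, 5.62 for *Cst7*, 3.85 for *Apoe*, 3.51 for *Lpl*, 4.84 for *Itgax*, 3.27 for *Clec7a* and 3.84 for *Axl*, with edgeR adjusted p up to 0.0138.

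*Trem2* and *Tyrobp*, which encode the DAM receptor and its adaptor, were not called. *Trem2* was at 1675, 902, 989 and 1616 CPM in WT libraries 1 to 4 and 800.3, 834, 936, 790.3 and 1099 CPM in LAG-3-low libraries 1 to 5, and its log2 fold change moved from -0.54 (edgeR adjusted p = 0.0645) to -0.0045 without WT 1 and 4 (edgeR adjusted p = 0.988). *Tyrobp* was at 1986, 727, 842 and 4199 CPM in WT libraries 1 to 4 and 1365, 1587, 1414, 1090.3 and 1410.0 CPM in LAG-3-low libraries 1 to 5. WT 4 held the highest and WT 2 the lowest level, either side of the LAG-3-low libraries. Its log2 fold change of -0.50 (edgeR adjusted p = 0.406) turned to 0.89 without WT 1 and 4 (edgeR adjusted p = 0.00237), below the minimum fold of a call.

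**Figure D3:**
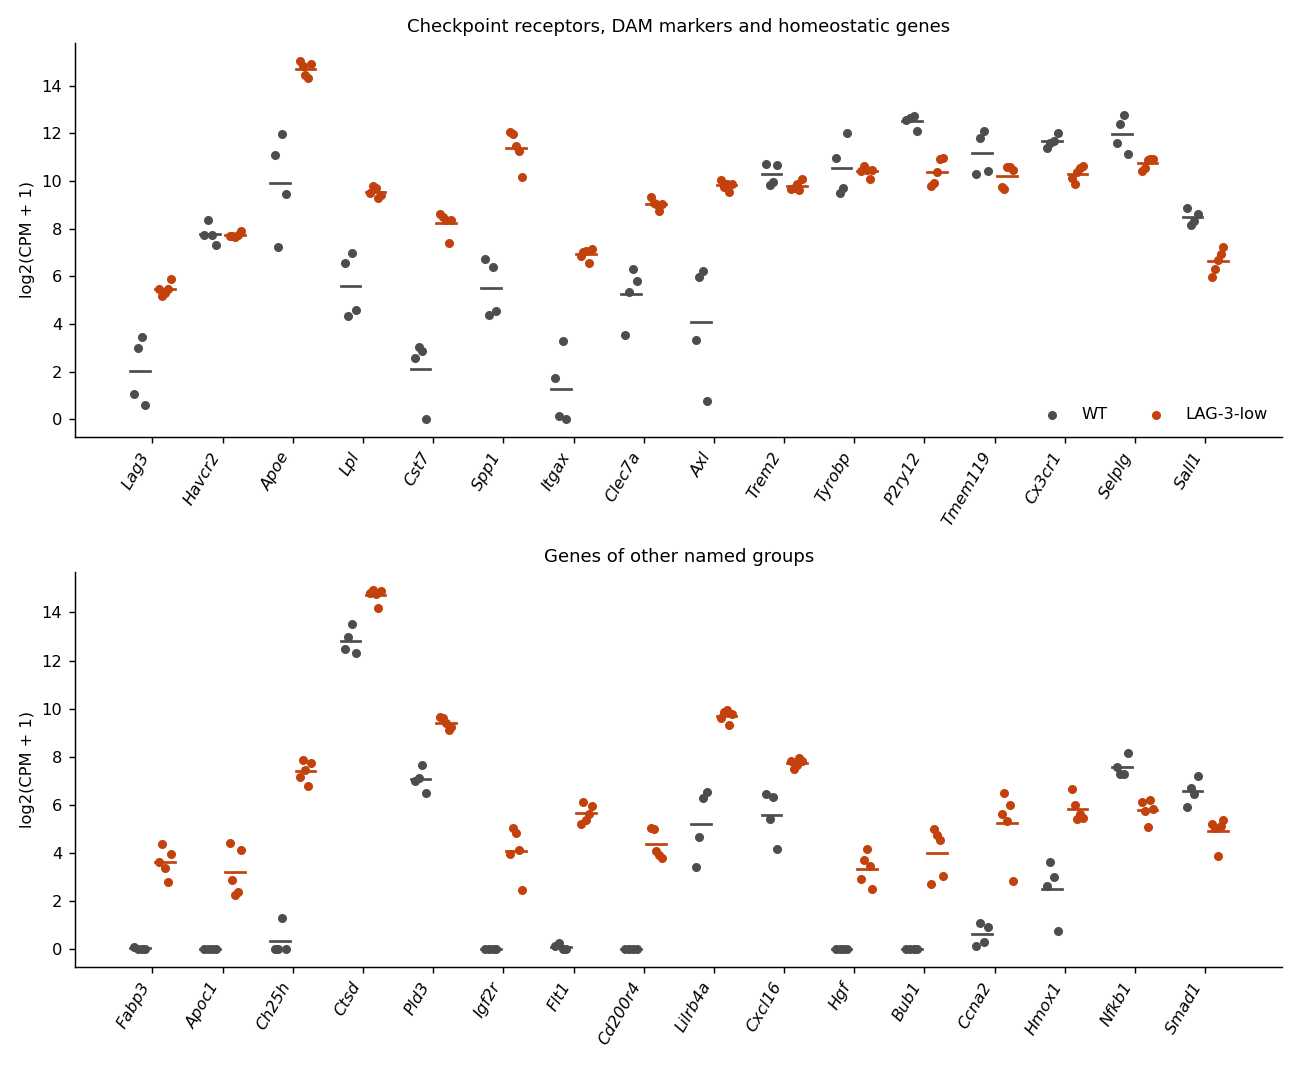
Levels of 32 genes as log2(CPM + 1) in the 4 WT (grey) and 5 LAG-3-low (orange) libraries, 1 point per library with a bar at the group mean. The upper panel holds *Lag3*, *Havcr2*, DAM and homeostatic markers and the lower panel genes of the other groups described, and *Havcr2*, *Trem2*, *Tyrobp* and *Tmem119* are the genes whose points overlap between the groups.

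A longer list of 42 DAM effector genes outside these 9 behaved likewise, with 28 (66.7%) higher and none lower, against 10.9% and 11.0% of all genes. The median log2 fold change was 2.21. Without WT 1 and 4, 31 were higher and the median was 2.07. Of members with at least 10 CPM, the smallest adjusted p belonged to *Flt1*, which encodes VEGF receptor 1, followed by *Cd200r4* and *Fabp3*. *Flt1* was at 0.102, 0.174, 0 and 0 CPM in WT libraries 1 to 4 and 35.7, 67.6, 40.6, 47.7 and 61.3 CPM in LAG-3-low libraries 1 to 5. All WT libraries together held 4 counts of *Flt1*, and the ratio of the group sums was 798-fold (95% exact interval 311 to 2929), which covers counting error only. *Cd200r4* was at 0 in every WT library and at 31.7, 30.4, 15.8, 14.1 and 12.6 CPM in LAG-3-low libraries, at least 108-fold higher when WT is set to a floor of 3 counts per library. *Fabp3*, a fatty acid binding protein gene, was at 11.2, 19.5, 9.34, 5.81 and 14.5 CPM in LAG-3-low libraries against 1 count in all of WT, a ratio of 750.4-fold (95% exact interval 134 to 29663). All 3 were near absence in WT and at a clear level in every LAG-3-low library. *Mfsd12*, a lysosomal transporter gene that is on none of the lists, had the smallest adjusted p of all protein-coding genes. Its level was 10.1, 8.63, 7.62 and 13.9 CPM in WT libraries 1 to 4 and 157, 189, 167, 139.9 and 146 CPM in LAG-3-low libraries 1 to 5 (log2 fold change 3.99, standard error 0.21, edgeR adjusted p = 8.75e-08).

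Homeostatic genes fell more often than they rose. Of 37 tested, 18 (48.6%) were lower, against 11.0% of all genes, and 18 were not called. The 1 that was higher was *Lag3* itself, which belongs to this list. The median log2 fold change was -1.06. Without WT 1 and 4, 17 were lower and the median was -0.89, where 3.81% of all genes were lower. *P2ry12*, the ADP receptor that steers microglial processes, was at 6096, 6358, 6821 and 4446 CPM in WT libraries 1 to 4 and 879, 959.5, 1346, 1938 and 2009.9 CPM in LAG-3-low libraries 1 to 5. *Cx3cr1*, the fractalkine receptor gene, was at 2706, 3117, 3250.2 and 4131 CPM in WT and 1114, 929, 1335, 1498 and 1591 CPM in LAG-3-low libraries. *Bin1*, which encodes a membrane-bending protein, was at 629, 569, 859 and 639.7 CPM in WT and 294, 279.9, 253, 273 and 318 CPM in LAG-3-low libraries. None of these 3 overlapped between the groups, and their log2 fold changes without WT 1 and 4 were -2.13, -1.22 and -1.24 (edgeR adjusted p of 0.000229, 0.000337 and 0.000137). *Selplg* was at 3106, 5442, 7052 and 2272 CPM in WT and 1359, 1484, 1913, 1956 and 1962 CPM in LAG-3-low libraries. Its call held without WT 1 and 4 (log2 fold change -1.76). It was lost once each library was adjusted for GC content and transcript length (the length and GC correction, log2 fold change -0.82, edgeR adjusted p = 0.233). The length used for *Selplg* was 553.5 bases, a median over annotated transcripts that need not be the length of the transcript expressed. That correction moved short transcripts upward, as given below by length. *Tmem119* was at 1261, 3582, 4421 and 1386 CPM in WT libraries 1 to 4 and 859.8, 818, 1519, 1542 and 1420.2 CPM in LAG-3-low libraries 1 to 5. WT 1 and WT 4 lay within the LAG-3-low range for *Tmem119*, and without them its log2 fold change went from -1.11 to -1.62 (edgeR adjusted p = 0.000512). Leaving out WT 2, WT 3 or LAG-3-low 2 instead took it under the minimum fold, to between -0.93 and -0.75 for the WT libraries.

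Transcription factors of microglial identity split. Of 14 tested, *Sall1* and *Sall3* were lower and *Cebpa*, a factor of myeloid cells at large, higher (median log2 fold change -0.24, and -0.12 without WT 1 and 4). That is 14.3% lower and 7.14% higher, against 11.0% and 10.9% of all genes. *Cebpa* was under the minimum fold after the length and GC correction (0.74 against 1.34). *Sall1*, the repressor that keeps microglia from other macrophage fates, was at 467, 282, 318 and 390.4 CPM in WT libraries 1 to 4 and 60.9, 77.8, 102, 120.4 and 151 CPM in LAG-3-low libraries 1 to 5 (log2 fold change -1.83, standard error 0.27, edgeR adjusted p = 0.000818; -1.47 without WT 1 and 4). The lowest WT library held more than the highest LAG-3-low library. *Sall3* went from 79.7 ± 24.99 CPM (SD, n = 4) to 34.4 ± 7.55 CPM (SD, n = 5) and was not called without WT 1 and 4 (log2 fold change -0.97, under the minimum fold). Of 15 factors of the MiT/TFE family and others induced in activated macrophages, 3 were higher and 1 lower (median 1.01, or 0.84 with members absent from WT at their lower bound). *Hif1a*, the hypoxia-inducible factor gene, was at 78.7, 76.7, 109.9 and 117 CPM in WT libraries 1 to 4 and 358, 376, 365, 237 and 527 CPM in LAG-3-low libraries 1 to 5. *Bhlhe40*, a repressor gene induced in macrophages, was at 0, 8.63, 0 and 0 CPM in WT and 136, 183, 128, 95.3 and 129.7 CPM in LAG-3-low libraries (log2 fold change 6.03, standard error 1.34, edgeR adjusted p = 0.00891). Neither overlapped between the groups, and the fall of *Maf* from 475 ± 185 CPM (SD, n = 4) to 158 ± 46.6 CPM (SD, n = 5) was not called without WT 1 and 4 (log2 fold change -0.96).

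Purinergic receptors and the enzymes that break down extracellular nucleotides moved in both directions, with 4 higher and 3 lower of 14 (28.6% and 21.4%, against 10.9% and 11.0% of all genes). The rises numbered 7 of 17 without WT 2 and 6 of 17 without WT 3. Of all genes, 3235 of 17398 and 2321 of 17458 were higher in those fits. Besides *P2ry12*, *Entpd1*, which encodes CD39, was lower at 418, 553, 541 and 291 CPM in WT and 151, 146, 218, 193 and 225 CPM in LAG-3-low libraries. *P2rx4*, an ATP-gated channel gene, was higher at 91.3, 100.5, 150.3 and 40.9 CPM in WT and 295, 253, 211, 201 and 302 CPM in LAG-3-low libraries. The fall of *Entpd1* was larger without WT 1 and 4 (-1.48 against -1.27) and was lost after the length and GC correction (edgeR adjusted p = 0.420), where *P2rx4* stood at 0.96. The length used for *Entpd1* was 754.5 bases, again a median over annotated transcripts.

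Lipid genes rose more often than they fell. Of 30 genes of lipid uptake, storage and efflux tested, 12 were higher, including *Apoe*, *Lpl* and *Fabp3* described above, and 1 lower, *Npc1*, which exports cholesterol from lysosomes and was named after its value was seen (median log2 fold change 1.36, or 1.22 with members absent from WT at their bound; 12 higher without WT 1 and 4). *Ch25h*, the cholesterol 25-hydroxylase gene, was at 0, 0, 1.41 and 0 CPM in WT libraries 1 to 4 and 142, 234, 173, 109.8 and 211 CPM in LAG-3-low libraries 1 to 5. Only WT 3 held any count. *Apoc1*, an apolipoprotein gene neighbouring *Apoe*, was at 0 in every WT library and at 20.3, 6.34, 3.77, 4.17 and 16.1 CPM in LAG-3-low libraries, at least 52.4-fold higher. Cholesterol synthesis genes gave 5 rises (22.7%) and 1 fall (4.55%) among 22, against the same shares of all genes (median 0.83). *Dhcr7*, the last enzyme of the pathway, was at 4.03, 0.349, 1.24 and 0 CPM in WT and 14.2, 16.6, 14.8, 13.8 and 14.6 CPM in LAG-3-low libraries. *Srebf2*, which encodes the transcription factor of the pathway, averaged 20.5 ± 5.30 CPM (SD, n = 4) in WT and 46.1 ± 16.7 CPM (SD, n = 5) in the LAG-3-low group (log2 fold change 1.17, standard error 0.32, edgeR adjusted p = 0.0249), a call lost after the length and GC correction (edgeR adjusted p = 0.642). *Sc5d* averaged 17.3 ± 6.98 CPM (SD, n = 4) and 46.9 ± 11.1 CPM (SD, n = 5). All LAG-3-low libraries exceeded all WT libraries for these 3 genes. The list held 3 rises without LAG-3-low 3, where *Srebf2* was under the minimum fold at 0.92.

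Lysosomal genes rose in part. Of 73 hydrolases and membrane proteins, 13 (17.8%) were higher and 6 lower, against 10.9% and 11.0% of all genes (median log2 fold change 0.61; 15 and 4 with a median of 0.31 without WT 1 and 4). The rises numbered 24 without WT 2 and 21 without WT 3. Of all genes, 3235 of 17398 and 2321 of 17458 were higher in those fits. *Ctsd*, the main aspartic protease of lysosomes, was at 5638, 8042, 11736 and 5115 CPM in WT libraries 1 to 4 and 29114, 30949, 27922, 18497 and 30299.9 CPM in LAG-3-low libraries 1 to 5. *Pld3*, an endolysosomal nuclease gene, was at 127, 138, 201 and 89.3 CPM in WT and 808, 777, 669.6, 546 and 594 CPM in LAG-3-low libraries (log2 fold change 2.29, standard error 0.22, edgeR adjusted p = 2.67e-05). Each LAG-3-low library lay above each WT library, and without WT 1 and 4 the log2 fold changes were 1.56 for *Ctsd* and 2.10 for *Pld3*. *Igf2r*, the receptor that carries hydrolases to the lysosome, was at 0 in WT and at 14.3, 31.6, 27.5, 16.3 and 4.49 CPM in LAG-3-low libraries, at least 97.3-fold higher. It overlaps the antisense RNA gene *Airn*, so without strand the 2 are uncertain. Subunits of the V-ATPase, the proton pump that acidifies lysosomes, gave 5 rises (27.8%) and no fall among 18 (median 0.30). They gave 2 rises without WT 1 and 4, where 9.09% of all genes were higher, and 3 without WT 1 or WT 4 alone. *Atp6v0a1* was at 7.44, 39.3, 18.9 and 1.59 CPM in WT libraries 1 to 4 and 138, 157, 207, 129 and 192 CPM in LAG-3-low libraries 1 to 5. The rises of *Atp6v1b2* (log2 fold change 1.10) and *Atp6v1c1* (1.15) were under the minimum fold without WT 1 and 4, at 0.68 and 0.68.

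Promoter sequences of these genes are shown because TFEB, TFE3 and MITF, the MiT/TFE factors, drive lysosomal genes through short sites. RefSeq windows on GRCm38.p6, from 250 bases before to 50 after each start, were matched by symbol for 10544 of the 16497 gene symbols tested. TCACGTGA, the core of the CLEAR element, was searched together with TCATGTGA, the M-box of MITF, on both strands, and a single stretch cannot match both. The CLEAR core was in 2.15% of all promoters, 1.80% of those called higher and 2.74% of those called lower. In the lysosomal list it was in 7 of 58 promoters (12.1%) and in 2 of the 12 of members called higher, and in the V-ATPase list in 3 of 12. The M-box was in 106 of all 10544 promoters, 7 of 58 lysosomal and 1 of 39 DAM promoters. The matches upstream of 3 genes that rose are printed with up to 30 bases on each side and the motif in capitals, 99, 132 and 46 bases before the start in order.
*Ctsd*, chr7:142387889-142387956, minus strand: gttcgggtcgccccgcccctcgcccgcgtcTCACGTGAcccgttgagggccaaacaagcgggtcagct
*Atp6v1a*, chr16:44139354-44139421, minus strand: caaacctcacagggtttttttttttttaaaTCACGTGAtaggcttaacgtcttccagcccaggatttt
*Fabp3*, chr4:130308662-130308729, plus strand: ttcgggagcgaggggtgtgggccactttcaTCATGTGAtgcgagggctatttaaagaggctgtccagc
These are matches of letters in a window, and binding was not measured. The transcription factor genes named above, *Hif1a*, *Bhlhe40* and *Maf*, are not MiT/TFE genes, and no change of a MiT/TFE gene is described here. *Ctsd* and *Fabp3* are described above, and *Atp6v1a*, a V-ATPase subunit gene named here for its match, rose as well (log2 fold change 1.22, edgeR adjusted p = 0.0399; 1.03 without WT 1 and 4, and 0.97, under the minimum fold, after the length and GC correction).

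Phagocytic and Fc receptor genes gave 8 rises and 4 falls among 36 (22.2% and 11.1%, against 10.9% and 11.0% of all genes; median log2 fold change 0.57). Without WT 1 and 4 the counts were 10 and 2 and the median 0.27. *Clec7a*, *Axl* and *Itgax*, given above, led the rises. *Itgb5*, an integrin gene for vitronectin and apoptotic cells, led the falls at 769, 266, 629.7 and 793 CPM in WT libraries 1 to 4 and 118, 118, 124, 95.3 and 128 CPM in LAG-3-low libraries 1 to 5 (log2 fold change -2.40, standard error 0.27, edgeR adjusted p = 0.000140; -1.84 without WT 1 and 4). WT 2 was lowest of WT and still above every LAG-3-low library. Complement genes gave 5 rises (26.3%) and 1 fall (5.26%) among 19, with a median of 0.96. Without WT 1 and 4 they gave 5 rises, no fall and a median of 0.38. *C3*, the central complement component, was at 9.43, 94.02, 29.6 and 5.39 CPM in WT and 289, 492, 413, 359 and 169 CPM in LAG-3-low libraries, and *C3ar1*, its anaphylatoxin receptor gene, at 198, 207, 154 and 229 CPM and 461, 374, 371, 330.5 and 461 CPM. Both kept their calls without WT 1 and 4 (log2 fold changes 2.53 and 1.22), while *C3ar1* was under the minimum fold after the length and GC correction (0.80) and without WT 3 (0.93). *C3* was lowest in LAG-3-low 5, the library with the fewest neutrophil and monocyte transcripts, and the part of such cells in its rise was not tested.

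Antigen presentation changed in few genes. Of 23 MHC class I genes, *H2-D1* was higher and the immunoproteasome gene *Psmb10* lower, 4.35% each against 10.9% and 11.0% of all genes. The median log2 fold change was 0.32, and without WT 1 and 4 the list had 4 higher and none lower. *H2-D1*, a classical class I gene with close copies, was at 1074, 961, 1798 and 877 CPM in WT libraries 1 to 4 and 3642, 2503, 3103, 3286 and 3169 CPM in LAG-3-low libraries 1 to 5, and its groups did not overlap. *Psmb10* went from 112 ± 64.2 CPM (SD, n = 4) to 51.7 ± 7.79 CPM (SD, n = 5), and its log2 fold change of -1.11 was -0.21 without WT 1 and 4. Of 12 class II genes, *Ciita* was higher and *H2-Oa*, *H2-Ob* and *Ifi30* lower, and none was called without WT 1 and 4, where *Ifi30* stood at 0.012 (edgeR adjusted p = 0.974).

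Interferon-stimulated genes gave 12 rises and 1 fall among 49 (24.5% and 2.04%), against 10.9% and 11.0% of all genes (median log2 fold change 1.20). Without WT 1 and 4 they gave 7 rises and 1 fall with a median of 0.74. In that fit 9.09% of all genes were higher and 3.81% lower. Leaving out WT 3 instead gave 19 rises, and 2321 of 17458 genes were higher in that fit. The members with the smallest adjusted p and at least 10 CPM were *Axl*, *Sp100*, a nuclear body gene, and *Ifitm3*, which restricts virus entry. *Sp100* was at 30.9, 72.7, 49.97 and 54.6 CPM in WT libraries 1 to 4 and 166, 142, 168, 127 and 96.9 CPM in LAG-3-low libraries 1 to 5. *Ifitm3* was at 101, 46.5, 80.01 and 38.7 CPM in WT and 221, 173, 187, 174 and 143 CPM in LAG-3-low libraries (log2 fold change 1.43, standard error 0.38, edgeR adjusted p = 0.0213). The groups did not overlap for either. *Ifi211*, a gene of the interferon-induced p200 cluster of similar copies, was at 0 in every WT library and at 33.9, 10.6, 20.1, 32.8 and 12.6 CPM in LAG-3-low libraries, at least 114-fold higher.

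Chemokine and cytokine genes rose more often than they fell, with 14 higher and 4 lower of 35 tested. These shares were 40% and 11.4%, against 10.9% and 11.0% of all genes (median log2 fold change 1.02). Without WT 1 and 4, 15 of 40 were higher and 2 lower, with a median of 2.64. Falls numbered 2 without LAG-3-low 3 or LAG-3-low 5. *Cxcl16*, a membrane-bound chemokine and scavenger receptor gene, was at 87.03, 40.9, 77.9 and 16.8 CPM in WT libraries 1 to 4 and 224, 177, 202, 243 and 225 CPM in LAG-3-low libraries 1 to 5. *Hgf*, the hepatocyte growth factor gene, was at 0 in WT and at 6.44, 11.99, 17.01, 10.1 and 4.58 CPM in LAG-3-low libraries, at least 51.8-fold higher. *Il18*, an inflammasome cytokine gene, was lower at 98.2, 24.7, 44.9 and 41.7 CPM in WT and 13.9, 4.76, 14.1, 12.1 and 12.2 CPM in LAG-3-low libraries (log2 fold change -2.20, standard error 0.45, edgeR adjusted p = 0.00568; -1.51 without WT 1 and 4). None of the 3 overlapped. Toll-like receptor and NF-kB genes gave 6 rises (18.75%) and 2 falls (6.25%) among 32, against 10.9% and 11.0% of all genes. Their median was 0.025, and -0.083 without WT 1 and 4. *Tlr2*, the receptor for bacterial lipopeptides, was at 77.7, 222, 247 and 74.4 CPM in WT and 375, 432, 541, 387 and 391 CPM in LAG-3-low libraries, with a log2 fold change of 1.45 that was 0.94 without WT 1 and 4. *Nfkb1* fell, at 188, 153, 154 and 283 CPM in WT and 68.4, 52.1, 32.9, 71.6 and 55.6 CPM in LAG-3-low libraries (log2 fold change -1.79, standard error 0.26, edgeR adjusted p = 0.000569). *Ly96*, the TLR4 co-receptor gene, fell from 40.2 ± 22.04 CPM (SD, n = 4) to 9.999 ± 3.05 CPM (SD, n = 5), with WT 2 and LAG-3-low 1 both at 14.3 CPM, and lost its call after the length and GC correction (edgeR adjusted p = 0.358).

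TGF-beta signalling genes gave 5 rises (18.5%) and 6 falls (22.2%) among 27, against 10.9% and 11.0% of all genes (median log2 fold change 0.0034). Without WT 1 and 4 the counts were 4 and 3 with a median of 0.071, and 3 genes rose without WT 1 alone. *Smad1*, which relays BMP signals, was at 59.7, 104, 87.3 and 145 CPM in WT libraries 1 to 4 and 35.5, 31.6, 13.6, 33.3 and 40.2 CPM in LAG-3-low libraries 1 to 5 (log2 fold change -1.68, standard error 0.34, edgeR adjusted p = 0.00528; -1.55 without WT 1 and 4). *Id2*, an inhibitor of transcription factor DNA binding, was at 77.1, 45.8, 34.3 and 57.5 CPM in WT and 132, 177, 101, 146 and 122 CPM in LAG-3-low libraries. Neither overlapped. *Pmepa1*, a feedback inhibitor gene, was at 419, 126, 115 and 455 CPM in WT and 56.2, 57.6, 94.1, 73.7 and 67.7 CPM in LAG-3-low libraries, and its log2 fold change of -1.99 was -0.71 without WT 1 and 4, under the minimum fold.

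Matrix proteases, ADAMs and TIMPs gave 9 rises (42.9%) and no fall among 21, against 10.9% and 11.0% of all genes. Their median log2 fold change was 2.31, and 8 rose without WT 1 and 4. *Plau*, the urokinase gene, was at 0.765, 0.436, 0.169 and 3.74 CPM in WT libraries 1 to 4 and 9.20, 8.27, 20.3, 12.6 and 15.3 CPM in LAG-3-low libraries 1 to 5. *Mmp8*, the neutrophil collagenase, was at 1.48, 0, 5.93 and 0 CPM in WT and 469, 603, 1140.2, 139 and 198 CPM in LAG-3-low libraries. The part of neutrophil transcripts in this rise was not tested. *Adam15* was at 134, 281, 177 and 99.4 CPM in WT and 287, 421, 367, 328 and 396 CPM in LAG-3-low libraries and was under the minimum fold without WT 1 and 4. *Retnlg* and *Cxcr2*, the other neutrophil genes with the smallest adjusted p, were at 0, 2.18, 2.48 and 33.3 CPM and 15.6, 5.93, 6.61 and 18.9 CPM in WT and at 541, 634, 877, 170.2 and 256 CPM and 48.4, 61.2, 73.4, 33.2 and 20.1 CPM in LAG-3-low libraries. Of 10 monocyte genes tested, 4 rose, among them *Fn1*, *Ly6c2* and *F10*. *Fn1*, the fibronectin gene, was at 30.9, 2.18, 7.57 and 19.2 CPM in WT and 647, 556, 712, 439 and 107 CPM in LAG-3-low libraries. *Ly6c2*, the marker of classical monocytes, was at 20.2, 39.6, 28.97 and 44.98 CPM and 90.9, 114, 129, 92.6 and 53.5 CPM. *Fn1* was lowest in LAG-3-low 5, as was *Ly6c2*. In LAG-3-high libraries *Fn1* averaged 648 CPM and *Ly6c2* 0 CPM, and the part of monocytes in either rise was not tested.

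Cell cycle and DNA replication genes rose more often than they fell, with 27 higher and 1 lower of 103 tested. These shares were 26.2% and 0.971%, against 10.9% and 11.0% of all genes (median log2 fold change 1.67). The count was 20 higher and none lower without WT 1 and 4, with a median of 1.26, and 17 higher without LAG-3-low 2, the library with the most *Ccna2*, *Aurkb* and *Bub1*. *Ccna2*, the cyclin of S and G2 phase, was at 0.102, 1.13, 0.226 and 0.888 CPM in WT libraries 1 to 4 and 47.7, 88.6, 38.6, 61.8 and 6.15 CPM in LAG-3-low libraries 1 to 5. *Aurkb*, a mitotic kinase gene, was at 0.663, 1.05, 0 and 0.634 CPM in WT and 28.4, 50.8, 31.3, 39.1 and 5.36 CPM in LAG-3-low libraries. *Bub1*, of the spindle checkpoint, was at 0 in WT and at 5.43, 30.7, 25.5, 22.3 and 7.11 CPM in LAG-3-low libraries, at least 94.1-fold higher. All 3 separated the groups, and LAG-3-low 5 was lowest for *Ccna2* and *Aurkb* and next to lowest for *Bub1*. LAG-3-low 5 also held the least of the neutrophil and monocyte lists, and the part of such cells in these rises was not tested. In LAG-3-high libraries, with 487 to 673 CPM of the neutrophil list and compared with the same WT libraries, 11 of the 103 genes were higher and 7 lower (median -0.45), against 12.1% higher and 14.9% lower of all genes tested. The E2F words TTTCGCGC and TTTGGCGC, on either strand, were in 14 of 82 promoters of the list (17.1%), in 4 of 25 of its members called higher and in 1.77% of all promoters.

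Immediate early genes, which respond within minutes to many stimuli, gave 10 rises (41.7%) and 1 fall (4.17%) among 24, against 10.9% and 11.0% of all genes. The median log2 fold change was 1.49, or 1.37 with members absent from WT at their bound. Without WT 1 and 4, 8 rose. *Atf3* was at 18.2, 7.84, 20.3 and 35.7 CPM in WT libraries 1 to 4 and 106, 108, 31.4, 58.5 and 82.04 CPM in LAG-3-low libraries 1 to 5, and LAG-3-low 3 lay below WT 4. *Zfp36*, which destabilises cytokine transcripts, was at 99.5, 96.4, 39.1 and 37.3 CPM in WT and 278, 281, 207, 123 and 129.99 CPM in LAG-3-low libraries. *Nr4a1*, a nuclear receptor gene, was at 0 in WT and at 32.7, 9.31, 2.17, 5.33 and 4.93 CPM in LAG-3-low libraries, at least 56.3-fold higher, with LAG-3-low 1 highest. *Zfp36* was under the minimum fold after the length and GC correction (0.94). Heat shock chaperones, by contrast, had 1 rise, *Hsf1*, and 1 fall, *Hsp90aa1*, among 19 (median -0.39). That is 5.26% each, against 10.9% and 11.0% of all genes. *Hsp90aa1* went from 189 ± 136 CPM (SD, n = 4) to 60.8 ± 5.73 CPM (SD, n = 5), and its log2 fold change of -1.64 was -0.18 without WT 1 and 4. The unfolded protein and integrated stress response list gave 3 rises and 3 falls among 34 (median 0.31), 8.82% each and so below the shares of all genes. In the absence of WT 1 and 4 it gave 7 rises, no fall and a median of 0.16. Leaving out WT 2, WT 3 or WT 4 alone gave 7, 6 and 5 rises, and 1 fall remained without WT 4. Of all genes, 3235 of 17398, 2321 of 17458 and 1826 of 17404 were higher in those fits. *Trib3*, a pseudokinase gene induced by ATF4, was at 12.1, 18.9, 4.75, 8.14 and 6.97 CPM in LAG-3-low libraries against 2 counts in all of WT. *Hyou1*, an endoplasmic reticulum chaperone gene, was at 0.612, 1.31, 0.791 and 4.89 CPM in WT and 18.8, 14.5, 16.8, 12.2 and 14.5 CPM in LAG-3-low libraries. The ratio of the group sums of *Trib3* was 305-fold (95% exact interval 84.1 to 2518), and the fall of *Manf* from 265 ± 211 CPM (SD, n = 4) to 85.5 ± 11.8 CPM (SD, n = 5) was not called without WT 1 and 4.

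Genes of glycolysis rose in 10 of 23 cases (43.5%) and fell in 1 (4.35%), against 10.9% and 11.0% of all genes (median log2 fold change 1.09). Without WT 1 and 4 they gave 5 rises and a median of 0.57, where 9.09% of all genes were higher. *Slc16a3*, the lactate exporter gene, was at 6.27, 50.6, 23.2 and 19.4 CPM in WT libraries 1 to 4 and 199, 262, 215, 143 and 197 CPM in LAG-3-low libraries 1 to 5. *Pgk1* was at 59.8, 84.1, 46.7 and 87.7 CPM in WT and 137, 165, 160.2, 122 and 153 CPM in LAG-3-low libraries, and *Aldoa*, the aldolase gene, averaged 325 ± 40.5 CPM (SD, n = 4) and 658 ± 74.6 CPM (SD, n = 5). These 3 did not overlap, though *Aldoa* was just under the minimum fold without WT 1 and 4 (log2 fold change 0.98, edgeR adjusted p = 0.00115). In the pentose phosphate pathway 3 of 8 genes (37.5%) rose and none fell, against the same shares of all genes (median 0.79). *Pgd* averaged 110.1 ± 36.7 CPM (SD, n = 4) in WT and 301 ± 41.2 CPM (SD, n = 5) in the LAG-3-low group, *Tkt* 124 ± 84.8 CPM (SD, n = 4) and 377 ± 112 CPM (SD, n = 5), and *G6pdx* 54.7 ± 66.9 CPM (SD, n = 4) and 207 ± 58.97 CPM (SD, n = 5). WT 2 was highest of WT for all 3. *Tkt* and *G6pdx* overlapped between the groups. In LAG-3-high libraries they averaged 176 and 71.9 CPM and were not called against WT (edgeR adjusted p = 0.343 and 0.654), while *Pgd* was higher there (log2 fold change 1.07). The part of neutrophil and monocyte transcripts in these rises was not tested. Without WT 1 and 4, *G6pdx* lost its call (edgeR adjusted p = 0.142), and *Pgd* was under the minimum fold after the length and GC correction (0.92). Of 8 NADPH oxidase genes, which this pathway supplies with NADPH, *Cybb* and *Rac2* rose (median 0.21, and 0.35 without WT 1 and 4). *Cybb*, the catalytic subunit, was at 87.6, 519, 98.6 and 219 CPM in WT libraries 1 to 4 and 968, 1197, 1422, 1181 and 545 CPM in LAG-3-low libraries 1 to 5. WT 2 was highest of WT and LAG-3-low 5 lowest of its group for *Cybb*, the same libraries as in the monocyte sum. The part of monocyte transcripts in this rise was not tested. *Rac2* was under the minimum fold without WT 1 and 4 (0.92). It averaged 258 CPM in WT, 628 CPM in LAG-3-low and 186 CPM in LAG-3-high libraries, and the part of neutrophil and monocyte transcripts in its rise was not tested.

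Antioxidant genes gave 9 rises (33.3%) and 1 fall (3.70%) among 27, against 10.9% and 11.0% of all genes (median log2 fold change 0.36). Without WT 1 and 4 they gave 10 rises and no fall, with a median of 0.75. *Hmox1*, which encodes the haem-degrading enzyme, was at 5.20, 11.2, 6.95 and 0.698 CPM in WT libraries 1 to 4 and 101, 62.2, 41.1, 48.6 and 43.2 CPM in LAG-3-low libraries 1 to 5 (log2 fold change 3.31, standard error 0.57, edgeR adjusted p = 0.00226). *Srxn1*, which encodes sulfiredoxin, a target of NRF2, was at 47.5, 12.7, 9.38, 38.7 and 3.62 CPM in LAG-3-low libraries against 2 counts in all of WT, a ratio of 724-fold (95% exact interval 200.1 to 5979.7). Counts of mouse *Sod1* were at 74.4, 6.19, 9.20 and 29.9 CPM in WT and 239, 249, 189, 195 and 191 CPM in LAG-3-low libraries (log2 fold change 2.83, standard error 0.56, edgeR adjusted p = 0.00465). The mice carry human SOD1, a close relative of the mouse gene, so these counts do not tell mouse from transgene transcripts and are uncertain. Iron handling genes gave 2 rises, *Hmox1* and *Steap3*, and 1 fall, *Blvrb*, among 18 (median 0.27, and 0.14 without WT 1 and 4). These counts are 11.1% and 5.56% of the list, against 10.9% and 11.0% of all genes. *Blvrb*, the biliverdin reductase B gene, lost its call when each of 7 of the 9 libraries was left out in turn.

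**Figure D4:**
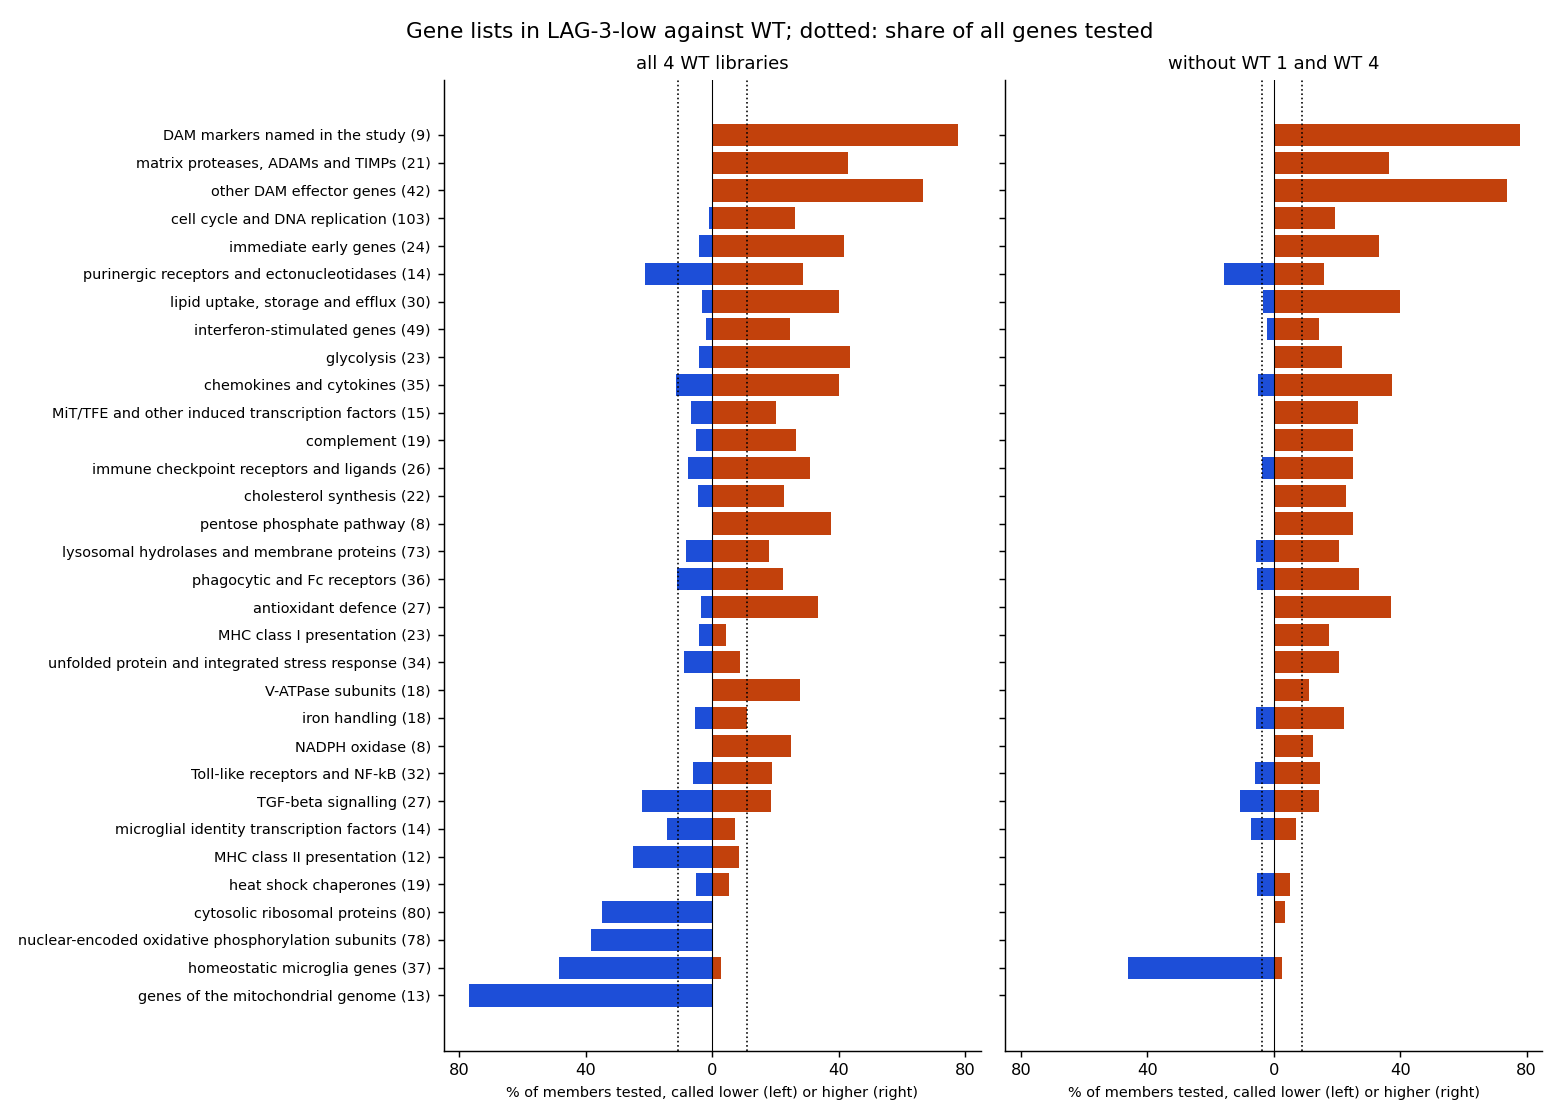
Share of the tested members of 32 gene lists called higher (orange, right) or lower (blue, left) in LAG-3-low microglia than in WT, in percent, with all 4 WT libraries (left panel) and without WT 1 and 4 (right panel). Lists are ordered by their median log2 fold change with the number of members tested in brackets, dotted lines mark the shares over all genes tested, and the falls of the ribosomal, oxidative phosphorylation and mitochondrial genome lists are present in the left panel only.

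Many of the largest rises belonged to genes without a count in any WT library. The 8 largest among protein-coding genes with at least 10 CPM were *Cspg4*, *Bcar3*, *Actr3b*, *Ass1*, *Ifi211*, *Cd200r4*, *Igf2r* and *Bub1*. *Cspg4*, which encodes the NG2 proteoglycan of oligodendrocyte precursors and pericytes, was at 56.1, 88.8, 22.05, 58.4 and 43.2 CPM in LAG-3-low libraries, at least 278-fold above WT, while the precursor genes *Pdgfra*, *Olig1* and *Olig2* were at 0 in all 9 libraries. *Bcar3*, an adaptor of integrin signalling, was at 29.2, 29.6, 34.7, 13.3 and 18.2 CPM, and *Actr3b*, a subunit of the actin-nucleating ARP2/3 complex, at 17.5, 25.7, 21.6, 18.4 and 38.5 CPM. *Ass1*, the argininosuccinate synthase gene that recycles citrulline to arginine, was at 24.0004, 26.1, 16.1, 32.9 and 20.3 CPM. These 3 had no count in WT libraries and counts in every LAG-3-low library, at least 129-fold, 126-fold and 124-fold higher with WT at the floor of 3 counts. Such bounds cover counting error only, not transcripts missed in WT libraries for another reason. The smallest adjusted p of all rises was shared by *Mfsd12* and *Gm10359*, a processed pseudogene at 81.7, 113, 100.4, 80.8 and 93.5 CPM, whose reads may come from its parent gene and are uncertain. *Pianp*, which encodes a PILR-alpha associated neural protein, was at 19.7, 24.6, 14.9, 10.4 and 18.8 CPM and at least 91.4-fold higher. Against the same WT libraries, the log2 fold changes, for LAG-3-high first and LAG-3-low second, were 12.88 and 12.88 for *Cspg4*, 13.04 and 11.78 for *Bcar3*, and 13.29 and 11.28 for *Pianp*, fitted values that depend on the prior count.

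The falls with the smallest adjusted p held without WT 1 and 4. *Glul*, the glutamine synthetase gene, was at 643, 285, 397 and 555 CPM in WT libraries 1 to 4 and 121, 144, 109, 143 and 122 CPM in LAG-3-low libraries 1 to 5 (log2 fold change -1.88, standard error 0.21, edgeR adjusted p = 0.000129). *Hpgd*, which inactivates prostaglandins, was at 707, 485, 668 and 745 CPM in WT and 227, 202, 145, 197 and 237 CPM in LAG-3-low libraries. *Sox4*, a transcription factor gene, was at 104, 71.9, 70.98 and 129 CPM in WT and 12.3, 14.3, 6.23, 7.65 and 7.41 CPM in LAG-3-low libraries (log2 fold change -3.30, standard error 0.35, edgeR adjusted p = 6.50e-05). Every LAG-3-low library lay below every WT library, and the log2 fold changes without WT 1 and 4 were -1.33, -1.42 and -2.81. *Rn18s-rs5*, an 18S ribosomal RNA sequence, and *Gm61219*, a long non-coding RNA, were the other 2 of the 5. *Gm61219* overlaps *Parp14* on the opposite strand. Their levels were 702, 384, 591 and 618 CPM and 1350.5, 375, 409 and 2089 CPM in WT and at 117, 103, 136, 127 and 133 CPM and 41.5, 32.1, 46.8, 56.98 and 34.9 CPM in LAG-3-low libraries. WT 1 and 4 held the most *Gm61219*, and its log2 fold change without them was -3.13.

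Of the 8 largest falls among protein-coding genes, 5 held without WT 1 and 4. *Gpr165*, an orphan receptor gene of the homeostatic list, was at 64.96, 63.3, 57.2 and 40.2 CPM in WT libraries 1 to 4 and 0.460, 0.138, 0.205, 6.25 and 4.62 CPM in LAG-3-low libraries 1 to 5 (log2 fold change -4.59, standard error 1.12, edgeR adjusted p = 0.0140; -4.61 without WT 1 and 4). *Camk2n1*, an inhibitor of CaMKII, was at 131, 19.4, 38.2 and 48.9 CPM in WT and 1.52, 0.551, 0.942, 1.84 and 6.15 CPM in LAG-3-low libraries. *Slamf1*, a receptor of the SLAM family, was at 13.7, 4.71, 24.1 and 136 CPM in WT and 3.91, 2.83, 1.07, 1.89 and 2.09 CPM in LAG-3-low libraries. The libraries of these 3 did not overlap, and the calls of *Camk2n1* and *Slamf1* held without WT 1 and 4 at -3.61 and -2.47, as did *Gm3002* at -2.59 and *Tmem204* at -4.94, though *Tmem204* lost its call when each of 7 of the 9 libraries was left out in turn. *Ryk*, a Wnt receptor gene, was at 17.8, 7.76, 16.7 and 105 CPM in WT, with WT 4 highest, and its call was lost (edgeR adjusted p = 0.121), as were those of *Snn* (edgeR adjusted p = 0.109) and *Zfta* (edgeR adjusted p = 0.449).

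Many ribosomal and mitochondrial genes were called lower in LAG-3-low microglia than in WT with all 4 WT libraries, and none without WT 1 and 4. Of 80 cytosolic ribosomal protein genes, 28 (35.0%) were lower and none higher, against 11.0% and 10.9% of all genes (median log2 fold change -0.87). Without WT 1 and 4, none of 82 was lower and 3 were higher (median 0.26). Those lower numbered 3 without WT 4 alone and 49 without WT 2, fits in which 1395 of 17404 and 2540 of 17398 genes were lower. With the length and GC correction 3 were lower and 1 higher (against 8.28% lower and 10.3% higher of all genes with that correction). *Rps3*, a small-subunit protein gene, shows the pattern at 543, 178, 282 and 727 CPM in WT libraries 1 to 4 and 214, 198, 183, 198 and 193 CPM in LAG-3-low libraries 1 to 5. WT 2 lay below every LAG-3-low library, and the other WT libraries above all of them. *Rps4x* was at 479, 58.03, 147 and 385 CPM in WT and 86.4, 91.5, 70.03, 103 and 83.7 CPM in LAG-3-low libraries, and *Rps12* at 55.9, 15.2, 8.98 and 182 CPM and 6.34, 10.3, 9.71, 10.9 and 15.6 CPM. Ribosomal protein genes have many processed copies, which makes single counts uncertain. Nuclear-encoded subunits of oxidative phosphorylation gave 30 falls and no rise among 78 (median -0.96), none in either direction without WT 1 and 4 (median 0.20), 4 falls without WT 4 alone and 50 without WT 2, and 9 falls and 3 rises after the correction. *Ndufa12*, a complex I subunit gene, was at 186, 34.1, 66.9 and 244 CPM in WT and 31.95, 40.5, 31.4, 35.6 and 47.6 CPM in LAG-3-low libraries, and *Ndufa5* and *Ndufb10* went from 63.02 ± 44.3 CPM (SD, n = 4) and 149 ± 112 CPM (SD, n = 4) to 20.7 ± 3.22 CPM (SD, n = 5) and 55.1 ± 11.4 CPM (SD, n = 5). Of the 13 protein-coding genes of the mitochondrial genome, 10 were called lower (median -1.52). None was called without WT 1 and 4, where their median of -0.47 was still below the 0.17 of all genes. *mt-Cytb* was at 6584, 1306, 2683 and 8613 CPM in WT libraries 1 to 4 and 897, 1145, 906, 958 and 843 CPM in LAG-3-low libraries 1 to 5, with a log2 fold change of -0.97 without WT 1 and 4 (edgeR adjusted p = 0.00671), just under the minimum fold. *mt-Atp6* and *mt-Atp8*, which overlap on the genome, went from 5396 ± 4352 CPM (SD, n = 4) and 627 ± 452 CPM (SD, n = 4) to 1166 ± 174 CPM (SD, n = 5) and 141 ± 21.4 CPM (SD, n = 5).

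The same dependence ran through transcript length. The genes tested were divided by the median length of their annotated transcripts into 5 equal groups. In the shortest group, with transcripts of 67 to 906 bases, the median log2 fold change was -0.71, with 731 genes lower and 244 higher, and in the longest group it was 0.30, with 228 lower and 431 higher. Without WT 1 and 4, the shortest group had a median of 0.0056, with 145 lower and 207 higher. With the length and GC correction its median was 0.38, with 140 lower and 395 higher. Short transcripts thus stood higher after the correction than without WT 1 and 4. Ribosomal protein transcripts had a median length of 763 bases and oxidative phosphorylation transcripts 760.2 bases, against 2060.2 bases in the DAM effector list and 2873 bases in the homeostatic list. The labels give no reason why WT 1 and 4 stood apart, and the part of library quality in the falls of short transcripts was not tested beyond these fits.

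**Figure D5:**
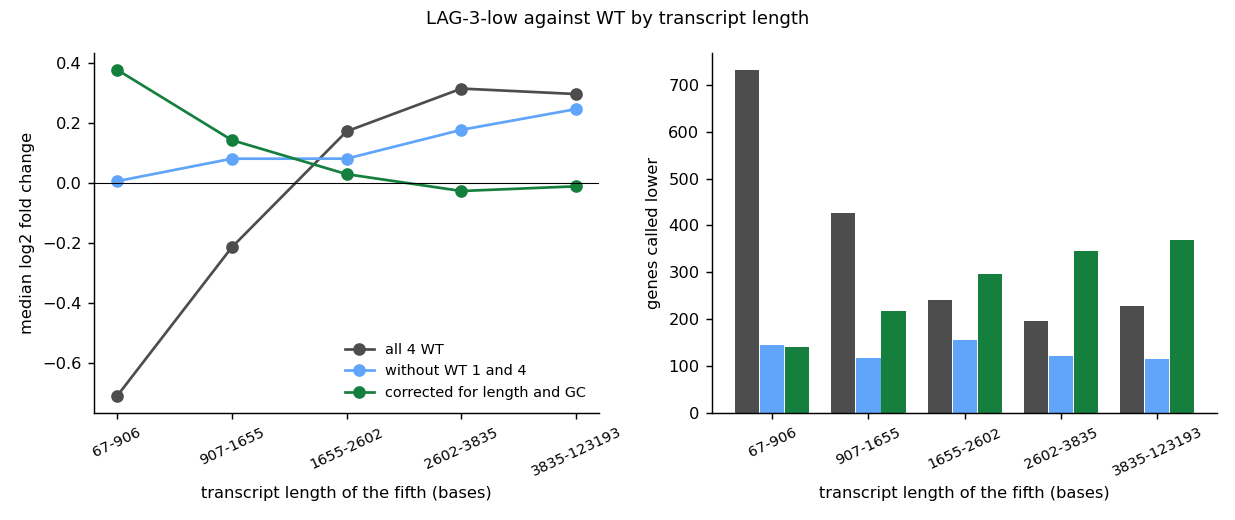
Median log2 fold change of LAG-3-low against WT (left) and number of genes called lower (right) in 5 equal groups of the genes tested by transcript length in bases, with all 4 WT libraries, without WT 1 and 4, and with the length and GC correction. The fall in the shortest group, with a median of -0.71 and 731 genes lower, becomes 0.0056 and 145 without WT 1 and 4, and 0.38 and 140 with the correction.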

How the data were processed

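Libraries from RNA of sorted microglia were made by SMART-seq mRNA HT LP chemistry, which does not mark strand. The deposited values are estimated counts per gene that the authors made by trimming with Trim Galore 0.6.7, quantifying with Salmon 1.9.0 against GRCm39 and summing transcripts with tximport in R 4.2.1, the versions being those of the submitters' processing notes. The annotation release is not given in the sources used here. Gene names were taken from GENCODE vM39, which lacked 71 identifiers holding 0.046% of the counts.

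Estimated counts were rounded. Genes with low counts were removed (filterByExpr, minimum count 10 and minimum total 15), and edgeR 4.0.16 in R 4.3.3 (TMM factors, robust quasi-likelihood test) was fitted to all 3 groups of the experiment together. A gene was called at a Benjamini-Hochberg adjusted p under 0.1 and a log2 fold change beyond 1 in either direction. Tested on simulated data, the fit recovered the larger and most of the smaller changes put in. The simulated counts varied less between libraries than the real ones, whose edgeR common dispersion was 0.69. How well changes are recovered in these data was therefore not measured. Between 9403475 and 22850586 counts per library leave genes below about 1 CPM resting on few counts. Exact intervals and floors cover counting error only.

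Named genes were *Lag3*, *Havcr2*, the DAM and homeostatic markers the study names, the 8 largest called rises and falls among protein-coding genes with at least 10 CPM and no overlap between libraries, the 5 with the smallest adjusted p in each direction, and of each list the 3 called members with at least 10 CPM and the smallest adjusted p. Genes named outside this rule were chosen after their values were seen. Some genes that the rule names are not reported here. The members and lists were chosen with earlier results of these data known.

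Alternatives were DESeq2 1.42.0, other size factors, filters and thresholds, the 9 libraries alone, the listed sex as covariate, a replicate block, a smooth correction of each library for GC content and transcript length, and each library left out in turn. Length and GC content were medians over all annotated transcripts of a gene, so the correction can misplace genes whose expressed transcript differs from that median. Leaving out WT 1 and 4, or WT 1 and 3, together was chosen after seeing the data.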

Additional observations from a re-analysis of the deposited data

Results flagged for a closer look

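In 14 of 252 groups of 4 or 5 libraries examined, 1 library lay outside the range of the others by more than Dixon's test allows, and chance flags about 1 in 20 groups. In 5 of these a gene was at 0 in the other 3 WT libraries, with *Bhlhe40* at 8.63 CPM in WT 2, *Ch25h* at 1.41 CPM in WT 3, *Fabp3* at 0.0510 CPM in WT 1, *Srxn1* at 0.113 CPM in WT 3 and *Trib3* at 0.174 CPM in WT 2. *Cst7* was at 0 CPM in WT 4 against 4.84 to 7.23 CPM in the other WT libraries.

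LAG-3-low 5 held 5.36 CPM of *Aurkb* against 28.4 to 50.8 CPM in the other 4, 107 CPM of *Fn1* against 439 to 712 CPM, and 71.7 CPM of *Hsf1*, the heat shock factor gene, against 41.5 to 47.8 CPM. LAG-3-low 4 held 168 CPM of *Cst7* against 327 to 386 CPM, 18497 CPM of *Ctsd* against 27922 to 30949 CPM, and 95.3 CPM of *Itgb5* against 118 to 128 CPM. *Il18* was at 4.76 CPM in LAG-3-low 2 against 12.1 to 14.1 CPM, and *Smad1* at 13.6 CPM in LAG-3-low 3 against 31.6 to 40.2 CPM. The direction of the difference from WT was the same with and without these libraries for each of the genes.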

How the results depend on the processing

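The 1793 rises became 2844 with DESeq2 and 909 with the 9 libraries fitted alone, and the 1821 falls became 958 without a filter on low counts, 812 with the 9 libraries alone and 709 without WT 1 and 4. The 909 rises were among 15439 genes. In that fit, 7 of 33 chemokine and cytokine genes and 8 of 49 interferon-stimulated genes rose. So did 2 of 32 Toll-like receptor and NF-kB genes and 2 of 22 cholesterol synthesis genes. Of the DAM markers named by the study 7 of 9 rose, and of the other DAM effector genes 22 of 41. With each library left out in turn, rises ranged from 1427 to 3235, the most without WT 2, and falls from 1395 to 2540. The *Lag3* difference ranged from 3.29 to 4.64 and the neutrophil difference from 0.54 to 1.69. With the replicate number as a replicate block, 1433 genes were higher and 824 lower, and 10 of the 126 named genes lost their calls, but same-numbered WT and LAG-3-low libraries shared only a number, with correlations of their deviations from -0.0137 to 0.0374. RLE size factors gave 1885 and 1768 calls, and no TMM factors 1720 and 1486. The signs of 4 named genes turned. *Havcr2* was at 0.044 without a filter and ranged from -0.23 to 0.15 with single libraries left out, with 0.15 without WT 2, *Tyrobp* was at 0.64 after the length and GC correction, 0.22 without WT 4 and 0.89 without WT 1 and 4, *Ifi30* at 0.012 without WT 1 and 4, and *mt-Atp8* at 0.68 after the correction. Of 126 named genes, 123 were called, and 74 of those called never lost the call. Without WT 1 and 4, 30 of the 126 were weaker and 2 reversed, and after the correction 24 and 2. The cause was not tested.

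Single libraries also decided calls of named genes. Without WT 4, *Adam15* (0.87), *Aldoa* (0.99), *Atp6v1b2* (0.92), *Atp6v1c1* (0.87), *H2-Ob* (-0.84), *Manf* (-0.92), *Ndufb10* (-0.75), *Psmb10* (-0.67) and *Rps3* (-0.76) went under the minimum fold, with the log2 fold change in brackets, and *Zfta* (-1.83) and *Pecam1* (-1.37) lost significance. The absence of WT 1 did the same to *Sall3* (-0.94), *Ifi30* (-0.60), *Rps3* (-0.97), *Atp6v1b2* (0.97), *Adam15* (0.9957) and *Pecam1* (-1.35), and that of WT 3 to *Pgk1* (0.95), *Slc1a3* (-0.84) and *Stab1* (-0.84). Leaving out LAG-3-low 2 took *Aldoa* to 0.96 and *Adam15* to 0.99, and LAG-3-low 1 *Stab1* to -0.97. *Zfta* lost significance without any single LAG-3-low library and *Pecam1* without LAG-3-low 1, 2 or 3 (-1.57 to -1.54). Depth limits genes near 1 CPM, WT 2 is the shallowest library, and without WT 1 and 4 the WT spread rests on 2 libraries.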
